A study of Rattus norvegicus with 10 samples.

Results

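The genes described here encode cytosolic heat shock chaperones of the HSP70, HSP110, HSP90 and HSP40 families, an HSP70 cofactor and the transcription factor that induces them. They were chosen by symbol, as array probe sets to which the platform annotation gives exactly 1 gene symbol among Hspa1b, Hspa2, Hspa8, Dnajb1, Dnaja1, Hsph1, Hsp90aa1, Hsp90ab1, Bag3 and Hsf1. Of these 10 genes, 7 had such a probe set, 12 probe sets in all, among 14217 genes with one. Hspa1b, Hspa8 and Hsp90aa1 had only probe sets shared with another symbol, 4 in number, and are given below as shared signals.

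The study took 5 mammary tumours that DMBA (7,12-dimethylbenz(a)anthracene, a carcinogen, 100 mg/kg by mouth once) had induced in female Sprague-Dawley rats. The final samples, 1 per tumour, were collected at sacrifice, at 19 weeks of age, after gavage with the olive phenol hydroxytyrosol at 0.5 mg/kg on 5 days of each of 6 weeks. The basal samples came from a Trucut needle taken at 12 weeks of age from the same tumours, 2 cm3 in volume and not yet treated. All 10 samples therefore come from tumours induced by DMBA, and the tumours are named by their identifiers 66D2, 67D3, 45D3, 49I1 and 51I1. Untreated tumours of the later age were not used here, so treatment, age, tumour growth and the manner of sampling cannot be told apart in a final minus basal difference. The sample labels call the final tissue the whole tumour, the design text a needle sample. Nothing in the labels says whether 2 tumours shared a rat.

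HSP70 proteins bind unfolded stretches of other proteins and release them in a cycle driven by ATP. J-domain proteins of the HSP40 family bring clients to HSP70 and start its ATP hydrolysis, while HSP110 proteins and BAG proteins exchange the nucleotide, and HSP90 takes over kinases and steroid receptors that need a late folding step. When unfolded proteins accumulate, HSF1 is freed from chaperones, trimerises and binds heat shock elements, inverted repeats of GAA and TTC, before the inducible chaperone genes. Tumour cells commonly hold high chaperone levels, and mammary tumours depend on HSP90 clients such as the oestrogen receptor and ErbB2.

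The stretches of promoter that hold an inverted GAA and TTC repeat show the sequence through which HSF1 is known to act. Whether HSF1 acted on them in these tumours was not tested. RefSeq promoters of build GRCr8, from 250 bases before to 50 after the annotated start, were found for 6 of the 7 genes. The motifs GAANNTTC and TTCNNGAA, each its own reverse complement and so searched on both strands at once, were present in 5 of these 6, against 15.9% of the 33469 promoters of the table. Dnaja1 and Hsph1 each held 3 matches and Dnajb1 held 2, whereas 2.28% of all promoters held more than 1. The genes were chosen by name as heat shock genes, so these shares are no result of the arrays. Each line below gives 30 bases, 5′ to 3′ on the strand of the gene, with the match in capitals and overlapping matches joined.
Hsph1, chr12:10427324-10427353, plus strand, match from 36 bases before the annotated start: gccgcagaTTCTGGAAAGTTCtcctcagta
Hsph1, chr12:10427252-10427281, plus strand, 105 bases before: gggtggaatctTTCTCGAAggctcgagaag
Dnaja1, chr5:60638405-60638434, plus strand, 10 bases into the transcript: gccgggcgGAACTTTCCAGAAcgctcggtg
Dnaja1, chr5:60638212-60638241, plus strand, 181 bases before: aaaagcctctaGAAGATTCtacaaggatcg
Dnajb1, chr19:41431134-41431163, minus strand, 11 bases before: cgggaggggcgGAAGGTTCtggagggctgg
Dnajb1, chr19:41431106-41431135, minus strand, 18 bases into the transcript: ggcgggatctgGAAGCTTCcgccggacggg
Hspa2, chr6:100864367-100864396, plus strand, 64 bases before: gctctgagagtTTCCAGAAggcagggggtg
Bag3, chr1:192533317-192533346, plus strand, 132 bases before: ggatgggaccaGAAGTTTCtagccggccag
In Hsph1 and Dnaja1 the joined match holds 3 alternating GAA and TTC units in a row. The Hsp90ab1 window and that of the related Hspa1a held no match, which says only that these letters are not in them. A link between the matches and the values below was not tested. The window of Hspa8, whose signal was shared with another symbol, held 4 matches.

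Values are signals on the log2 scale, normalised by Robust Multichip Average (RMA). The scale is not stated and was taken to be log2 from the range of the values. The median signal of the tested probe sets was 7.77 ± 0.02 in final and 7.75 ± 0.05 in basal arrays (SD, n = 5 each). The BioB spike-in, which the study used as its measure of sensitivity, averaged 7.97. The keratins, junction genes and transcription factors listed as luminal markers of the labelled tissue were above the dim cutoff of 5.15 in 9 of 10 cases (Foxa1 lay below it), with list medians from 11.07 to 11.58 in final and from 11.03 to 11.46 in basal samples. The hexokinase control, whose 3′ signal exceeds its 5′ signal more as RNA degrades, had a 3′ minus 5′ difference between 0.89 and 1.10 in final arrays. In basal arrays it was 2.03 in 67D3 and 2.36 in 45D3, and between 0.97 and 1.29 in the other tumours, so these 2 biopsies stand apart.

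Differences were tested with limma, with the tumour as a block and Benjamini-Hochberg adjustment over 18625 probe sets. Of these, 0 (0.00%) had an adjusted p under 0.05, and all 12 chaperone probe sets passed the filter on dim signal and were among those tested. Of the 7 genes, by the brightest probe set, 2 had an unadjusted p under 0.05, both lower in final samples (Hspa2 and Hsf1), where 4.36% of the 10839 genes tested were that low. The median difference over the 7 genes was -0.16, beside -0.01 over all genes tested, with 6 of the 7 lower and 1 higher. Of all 10839 genes tested, 5648 were lower and 5191 higher. Final and basal ranges overlapped for each of the 7, a description for which no share over all genes tested is at hand. What the means hide is a division between tumours. In 67D3 and 45D3 the final sample was higher than the biopsy, and in 66D2, 49I1 and 51I1 it was lower, for 5 of the 7 genes (Dnajb1, Dnaja1, Hsph1, Hsp90ab1 and Bag3) against 5.60% of all genes tested. This pattern was recognised in these data, the genes share the same arrays, and the count is a description.

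**Figure D1:**
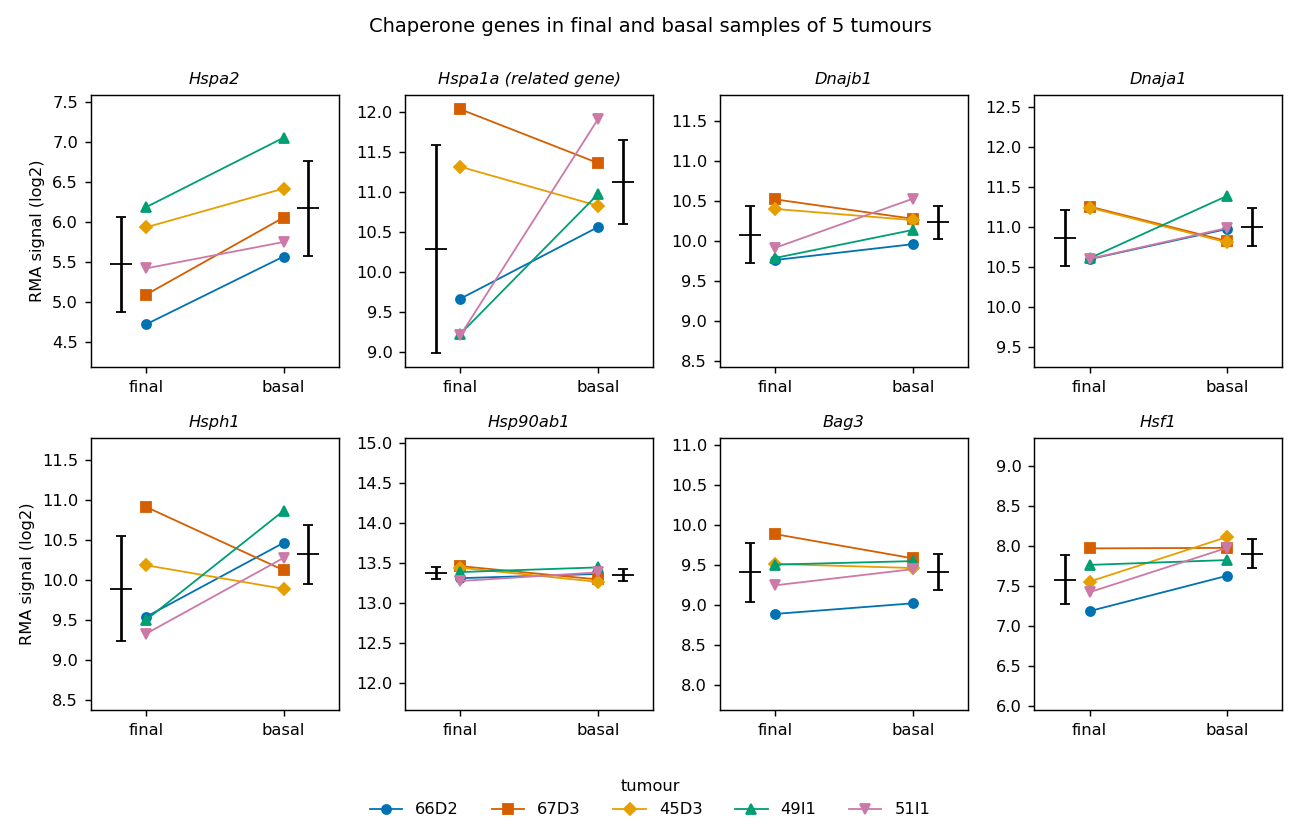
RMA signal (log2, every panel spanning the same number of units) of the 7 chaperone genes and the related Hspa1a in the final and basal sample of each tumour, by the brightest probe set; lines join the samples of 1 tumour, and the black marks are the mean ± SD (n = 5). Hspa2 and Hsf1 slope one way in every tumour, while Hspa1a, Dnajb1, Dnaja1 and Hsph1 lines cross, with 67D3 and 45D3 on top in final samples.

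Hsph1, the HSP110 chaperone that exchanges nucleotide on HSP70, had the widest spread of differences between tumours among the 7 genes (SD 0.92, n = 5). By its brightest probe set it had 10.92 in 67D3, 10.19 in 45D3, 9.54 in 66D2, 9.50 in 49I1 and 9.33 in 51I1 in final samples. In basal samples it had 10.13 in 67D3, 9.89 in 45D3, 10.47 in 66D2, 10.87 in 49I1 and 10.28 in 51I1. The final sample was thus above its biopsy by 0.79 in 67D3 and 0.30 in 45D3, with differences of -0.93 to -1.37 in the other tumours. The mean was 9.90 ± 0.66 in final and 10.33 ± 0.37 in basal samples (SD, n = 5 each), a log2 difference of -0.43 (SE 0.33, adjusted p = 0.755). The second Hsph1 probe set divided the tumours in the same way, with differences of 0.69 in 67D3, 0.87 in 45D3 and -0.77 to -1.59 in the others.

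Dnaja1, a J-domain protein that serves HSP70 in the cytosol, gave close signals in 67D3 and 45D3 at either time. Its final signals were 11.26 in 67D3, 11.25 in 45D3, 10.60 in 66D2, 10.61 in 49I1 and 10.61 in 51I1. Its basal signals were 10.83 in 67D3, 10.81 in 45D3, 10.98 in 66D2, 11.40 in 49I1 and 10.99 in 51I1. The 2 final samples near 11.25 lie apart from the 3 near 10.61, while in biopsies the same 2 tumours were the lowest. The mean log2 difference was -0.14 (SE 0.21, adjusted p = 0.876), and the other Dnaja1 probe set gave -0.17 (SE 0.19) with the same signs in every tumour. That probe set did not repeat the order of the biopsies. Its lowest basal signals were 9.86 in 66D2 and 9.95 in 51I1, below 10.01 in 67D3 and 10.02 in 45D3.

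Dnajb1, the stress-inducible J-domain partner of HSP70, had final signals of 10.52 in 67D3, 10.40 in 45D3, 9.76 in 66D2, 9.79 in 49I1 and 9.92 in 51I1. The biopsies had 10.28 in 67D3, 10.26 in 45D3, 9.96 in 66D2, 10.14 in 49I1 and 10.53 in 51I1. Tumours 67D3 and 45D3 were again the highest in final samples, but in biopsies 51I1 was. The mean difference was -0.16 (SE 0.15, adjusted p = 0.799) for this probe set and -0.12 (SE 0.21) for the other.

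Bag3, a BAG protein that couples HSP70 to small heat shock proteins and autophagy and is itself an HSF1 target, had nearly equal means (9.41 ± 0.37 in final and 9.41 ± 0.23 in basal samples, SD, n = 5 each). It had 9.89 in 67D3, 9.51 in 45D3, 8.89 in 66D2, 9.51 in 49I1 and 9.25 in 51I1 in final samples, against 9.58, 9.46, 9.02, 9.55 and 9.45 in the basal samples of the same tumours in that order. The mean log2 difference was -0.0050 (SE 0.11, adjusted p = 0.992), and no tumour differed by more than 0.30. Tumour 66D2 was lowest and 67D3 highest at both times.

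Hsp90ab1, the constitutive cytosolic HSP90, was measured by 2 probe sets that differ in size in 45D3 and in sign in 51I1. By the brighter one it had 13.46 in 67D3, 13.44 in 45D3, 13.31 in 66D2, 13.38 in 49I1 and 13.27 in 51I1 in final samples, and 13.29, 13.26, 13.36, 13.44 and 13.38 in the basal samples in the same order. Its mean difference was 0.02 (SE 0.09, adjusted p = 0.956), with the narrowest error of the 7 genes. The other probe set gave 0.26 (SE 0.21, adjusted p = 0.771), with 1.21 in 45D3, where the brighter set gave 0.18 and the basal signal of 11.44 was the lowest of all 10 arrays. In 51I1 it gave 0.02, against -0.11 by the brighter set, so it did not divide the tumours in the same way. The 45D3 biopsy also had the highest hexokinase 3′ minus 5′ difference (2.36), and the part of RNA quality in the gap between the probe sets was not tested.

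Hsf1, the heat shock transcription factor itself, was lower in all 5 final samples. It had 7.98 in 67D3, 7.56 in 45D3, 7.19 in 66D2, 7.77 in 49I1 and 7.43 in 51I1, against 7.98, 8.12, 7.63, 7.83 and 7.98 in the basal samples in the same order. The difference was -0.44 in 66D2 and -0.56 in both 45D3 and 51I1, but -0.01 in 67D3 and -0.06 in 49I1. The mean was 7.59 ± 0.30 in final and 7.91 ± 0.18 in basal samples (SD, n = 5 each), a difference of -0.32 (SE 0.12, unadjusted p = 0.037 in the limma fit over all probe sets, adjusted p = 0.598), and both means lay just below BioB. The sign of its difference, like that of Hspa2, did not divide the tumours as that of the other 5 genes did.

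Hspa2, an HSP70 best known from spermatogenic cells and present at low level elsewhere, was also lower in all 5 final samples by its brightest probe set. Its signals were 5.09 in 67D3, 5.94 in 45D3, 4.72 in 66D2, 6.19 in 49I1 and 5.42 in 51I1 in final samples. They were 6.06 in 67D3, 6.42 in 45D3, 5.57 in 66D2, 7.06 in 49I1 and 5.75 in 51I1 in biopsies. All lay below BioB and 2 final signals below the dim cutoff, so no fold is given for the difference of -0.70 (SE 0.13, adjusted p = 0.413). The other Hspa2 probe set, just as dim, gave -0.23 (SE 0.20), with 45D3 higher by 0.48. Hspa2 and Hsf1 were the 2 of the 7 genes that were lower in every tumour, where 5.27% of all genes tested were.

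**Figure D2:**
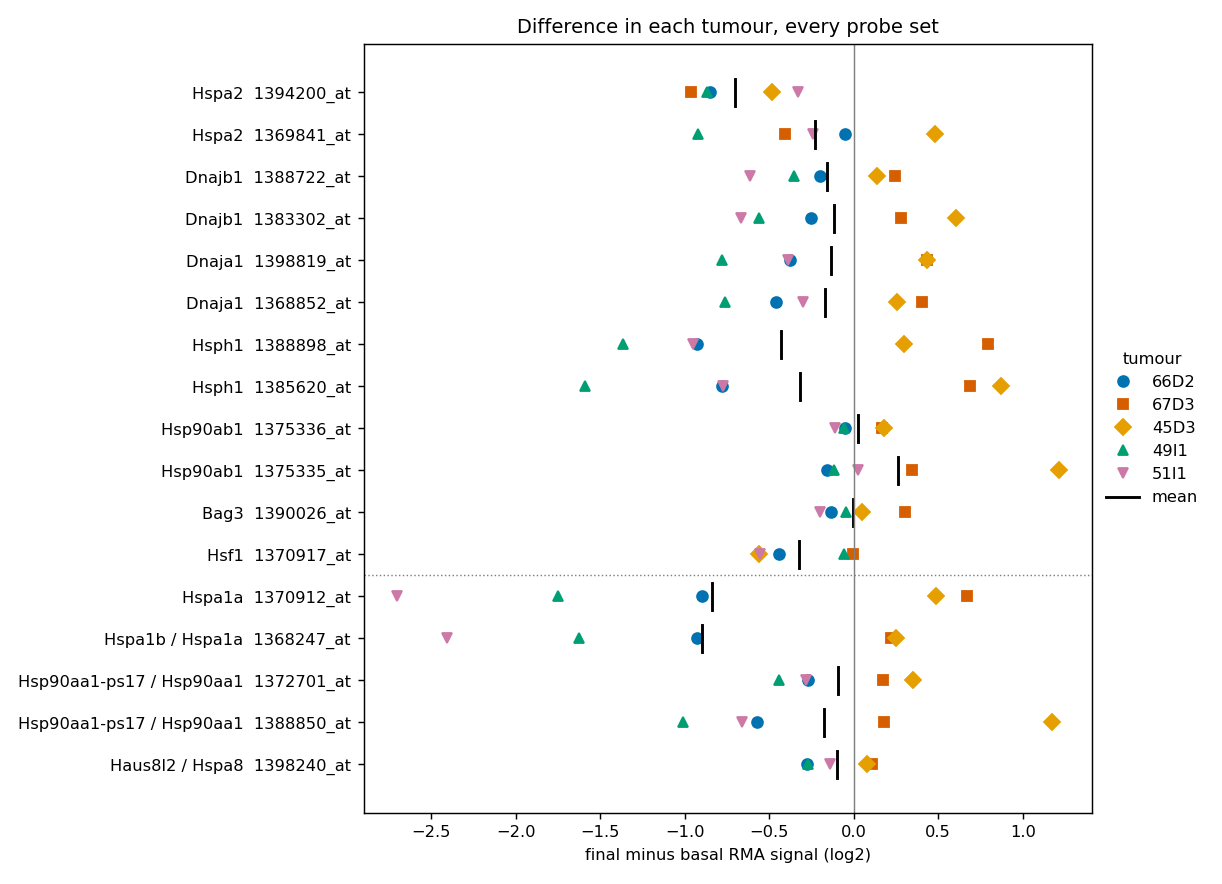
Final minus basal RMA signal (log2) in each tumour for every probe set, with the mean as a black bar; above the dotted line stand the 12 probe sets of 1 symbol, below it Hspa1a and the 4 shared probe sets. The orange squares of 67D3 and yellow diamonds of 45D3 lie right of 0 in most rows, and the largest separation is that of Hspa1a.

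Hspa1a, which encodes the stress-inducible HSP70 and is nearly identical in its coding sequence to Hspa1b, had a probe set annotated to it alone and gave the widest division. Its final signals were 12.04 in 67D3, 11.32 in 45D3, 9.67 in 66D2, 9.23 in 49I1 and 9.22 in 51I1. Its basal signals were 11.37 in 67D3, 10.83 in 45D3, 10.57 in 66D2, 10.98 in 49I1 and 11.92 in 51I1. The final samples fell into a high pair and 3 low ones, and the biopsies into no such groups, 51I1 being the highest of them. The mean difference was -0.84 (SE 0.51, adjusted p = 0.700), with 51I1 at -2.70 and 67D3 at 0.67. A probe set annotated to both Hspa1b and Hspa1a gave 0.22 in 67D3, 0.25 in 45D3, -0.93 in 66D2, -1.63 in 49I1 and -2.40 in 51I1, with a mean of -0.90 (SE 0.41, adjusted p = 0.642). Since the transcripts are so alike, neither probe set is taken as a measure of Hspa1b. Whether the probe set annotated to Hspa1a alone also detects Hspa1b was not tested, so Hspa1a names it here by annotation only.

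The constitutive HSP70 Hspa8 and the inducible HSP90 Hsp90aa1 share their probe sets with the symbols Haus8l2 and Hsp90aa1-ps17, so these signals are not assigned to 1 gene. The set shared by Hspa8 differed by -0.28 to 0.11 across tumours, with a mean of -0.10 (SE 0.10, adjusted p = 0.816). The brighter set shared by Hsp90aa1 differed by -0.09 (SE 0.14) and the dimmer by -0.18 (SE 0.31), and the dimmer one ranged from -1.01 in 49I1 to 1.17 in 45D3. All 4 shared probe sets were higher in final samples of 67D3 and 45D3 and lower in the other 3 tumours, as were 8 of the 12 probe sets of 1 symbol.

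The spread between tumours was wider in final than in basal samples for 7 of the 7 genes by the brightest probe set, a property of 49.1% of all genes tested. For Dnaja1 the SD was 0.35 in final and 0.24 in basal samples, and for Hspa2 it was 0.60 in final and 0.59 in basal samples. The second probe sets of Hspa2 and Hsp90ab1 had the reverse order, with 0.33 in final and 0.49 in basal samples for Hspa2 and 0.21 in final and 0.49 in basal samples for Hsp90ab1. Both sets shared by Hsp90aa1 were also reversed, with 0.18 in final and 0.21 in basal samples for the brighter. The dimmer had 0.34 in final and 0.57 in basal samples. The sets shared by Hspa8 and Hspa1b were wider in final samples. The genes share the same 5 tumours, so the wider final spread is 1 observation and not 7.

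The rest of the chaperone network was read from 7 lists that held 72 genes, of which 62 were tested. Of the 62, 0 passed the adjusted threshold, 15 were higher and 47 lower in final samples, and the median difference was -0.06. Among all 10839 genes tested 5648 were lower and 5191 higher. The listed genes share the same 5 tumours, so the counts of lower genes here and below are a description. The division of the tumours seen above was present in 17 of the 62 (27.4%), Hspa1a among them, against 5.60% of all genes tested. The division was recognised in these same arrays, so this count too is a description. It held in 6 of 14 HSP90 co-chaperones, 4 of 7 mitochondrial chaperones, 3 of 13 chaperonin and prefoldin genes, 2 of 4 other HSP70 genes, 1 of 8 HSP70 cofactors, 1 of 13 J-domain genes and 0 of 3 heat shock factors and regulators.

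HSP90 co-chaperones, which load clients and pace the HSP90 cycle, were lower in final samples in 12 of 14 cases, with a median of -0.08. Chordc1, an HSP90-binding protein induced by heat, differed by -0.39 (SE 0.22, adjusted p = 0.672), from -1.04 in 49I1 to 0.34 in 45D3. Fkbp5, a glucocorticoid-induced immunophilin of the HSP90 complex, was lower in all 5 tumours, with -1.22 in 45D3 and -0.11 to -0.26 in the others (mean -0.39, SE 0.18, adjusted p = 0.649). Ptges3, the co-chaperone p23, differed by -0.17 (SE 0.09, adjusted p = 0.675) and was also lower in all 5.

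Mitochondrial chaperones were lower in 7 of 7, with a median of -0.09. Hspa9, the mitochondrial HSP70, differed by -0.23, Hspd1, the chaperonin HSP60, by -0.17, and Grpel2, a nucleotide exchange factor, by -0.14. In the chaperonin TRiC and prefoldin list 10 of 13 were lower (median -0.08), with Cct6a at -0.29 (SE 0.12, adjusted p = 0.629), Pfdn4 at -0.16 and Pfdn6 at 0.12. Cct6a was lower in 4 tumours and higher by 0.15 in 45D3.

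Among other J-domain proteins 8 of 13 were lower, with a median of -0.02. Dnajb5 was the only network gene at an unadjusted p under 0.05, higher by 0.31 (SE 0.11, adjusted p = 0.592), where 2.78% of all genes were that high. It was higher in 4 of 5 tumours, and both its means lay below BioB. The count of 1 of 62 rests on single tumours, being 15 without 45D3, 1 without 49I1 and 0 without 66D2, 67D3 or 51I1. Over all 18625 probe sets the count at the same unadjusted p also rose, from 1494 with every tumour to 3383 without 45D3. Dnajb6, a suppressor of protein aggregation, differed by -0.22 and Dnaja2, the sister of Dnaja1, by -0.17. HSP70 cofactors were lower in 7 of 8 (median -0.04), with Bag2 at -0.19, St13, which stabilises HSP70 with its client, at -0.20, and the ubiquitin ligase Stub1 at -0.06.

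The other HSP70 list had 4 tested genes with a median of -0.06, among them Hspa14 at -0.19 and Hspa4, an HSP110 relative of Hsph1, at 0.15. The list of heat shock factors and regulators had 3 tested, the autophagy receptor Sqstm1 at 0.21, Hsbp1, which binds HSF1, at 0.08, and Hsf2, a second heat shock factor, at -0.03. Among the 62 network genes no adjusted p was below 0.592.

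**Figure D3:**
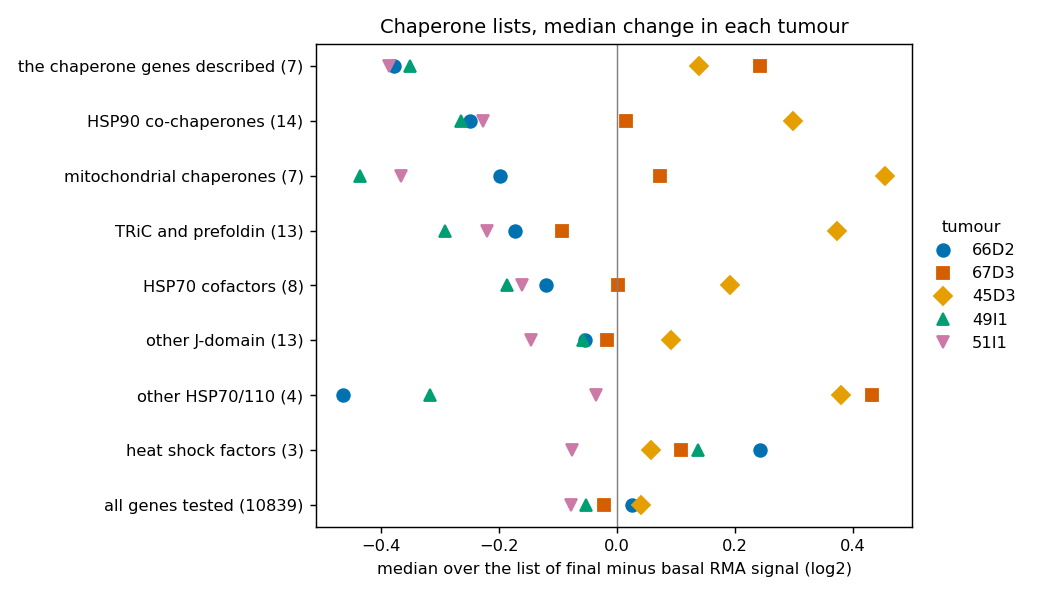
Median over each list of the final minus basal RMA signal (log2) in each tumour, with the number of tested genes in brackets. For the chaperone genes described the median was 0.24 in 67D3 and 0.14 in 45D3 and between -0.39 and -0.35 in the other tumours; the other HSP70, HSP90 co-chaperone, HSP70 cofactor and mitochondrial lists show the same signs, the J-domain, chaperonin and prefoldin, and heat shock factor lists do not, and all genes tested stay within 0.08 of 0.

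Genes outside the set with the most similar pattern over the 10 arrays, which share 5 tumours, were listed by Pearson's r as a description. The rule named Hspa1b and Hspa8 as patterns to match, and as neither had a probe set of 1 symbol, Hsph1, Dnajb1 and Hspa1a took their place after the values were seen. Closest to Hsph1 were Gtf3c4 (r = 0.95), Rffl (0.94), the co-chaperone Chordc1 (0.90), Tmem129 (0.88) and Dnaaf10 (0.88). Closest to Dnajb1 were Hspa1a (0.94), Crym (0.93), Baiap2 (0.91), Arhgef5 (0.90) and Itpkc (0.90). Closest to Hspa1a were Banp (0.96), Kdm1a (0.94), Arhgef5 (0.93), Serac1 (0.92) and Zfand2a (0.90), the last a gene induced by arsenite and proteasome inhibition. A high r over the arrays did not always come with the division of tumours. Banp, Arhgef5, Serac1, Crym, Baiap2 and Itpkc were lower in the final sample of 45D3. The genes closest to Hsph1 divided the tumours as Hsph1 did, and so did Kdm1a and Zfand2a. Within the 7 genes the 21 pairwise values of r ran from 0.13 for Hsp90ab1 with Hsf1 to 0.91 for Dnaja1 with Hsph1.

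Some other measures moved with this division of the tumours and some did not. The hexokinase 3′ minus 5′ difference differed, final minus basal, by -1.02 in 67D3, -1.47 in 45D3, 0.11 in 66D2, -0.09 in 49I1 and -0.27 in 51I1. The same measure of the actin control did not follow the division, with -0.05 in 67D3, -0.55 in 45D3, 0.02 in 66D2, 0.20 in 49I1 and -0.21 in 51I1. In a fit with the hexokinase difference as a covariate Hsph1 differed by -1.09 (SE 0.25, adjusted p = 0.263), Dnaja1 by -0.54, Dnajb1 by -0.37 and Hspa1a by -1.73, none past the threshold. T and NK cell markers, 10 of 10 measured with Klrd1 below the dim cutoff, ran opposite to the chaperones, with a median difference of -0.89 in 67D3 and -0.93 in 45D3 and of 1.49 in 66D2, 1.32 in 49I1 and 1.37 in 51I1. Their list medians lay between 5.70 and 7.74 in final and between 5.28 and 6.90 in basal samples. All of these are below BioB (7.97), so the size of the differences is uncertain. The log2 of their summed signal lay between 9.24 and 11.78 in final and between 8.72 and 10.94 in basal samples. In such bulk tissue fewer cells of a type and less RNA per cell cannot be told apart, and the part of these cells in the chaperone values was not tested.

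Immediate-early genes, which respond to handling within minutes, were measured for 16 of 17 and were all above the dim cutoff. Their median was lower in final samples in every tumour, with -1.33 in 45D3, -0.83 in 67D3, -0.31 in 49I1, -0.29 in 66D2 and -0.08 in 51I1. The log2 of their summed signal lay between 13.47 and 13.69 in final and between 13.84 and 15.06 in basal samples. The biopsies of 67D3 and 45D3 had the highest list medians. The part of handling in the chaperone values was not tested. Skeletal muscle markers, 13 of 14 measured with Myh2 and Myh4 below the cutoff, were higher by 6.82 in 67D3, 4.37 in 66D2, 2.45 in 49I1, 0.43 in 45D3 and 0.25 in 51I1, which does not follow the division. The log2 of their summed signal lay between 11.09 and 15.67 in final and between 10.67 and 11.57 in basal samples.

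**Figure D4:**
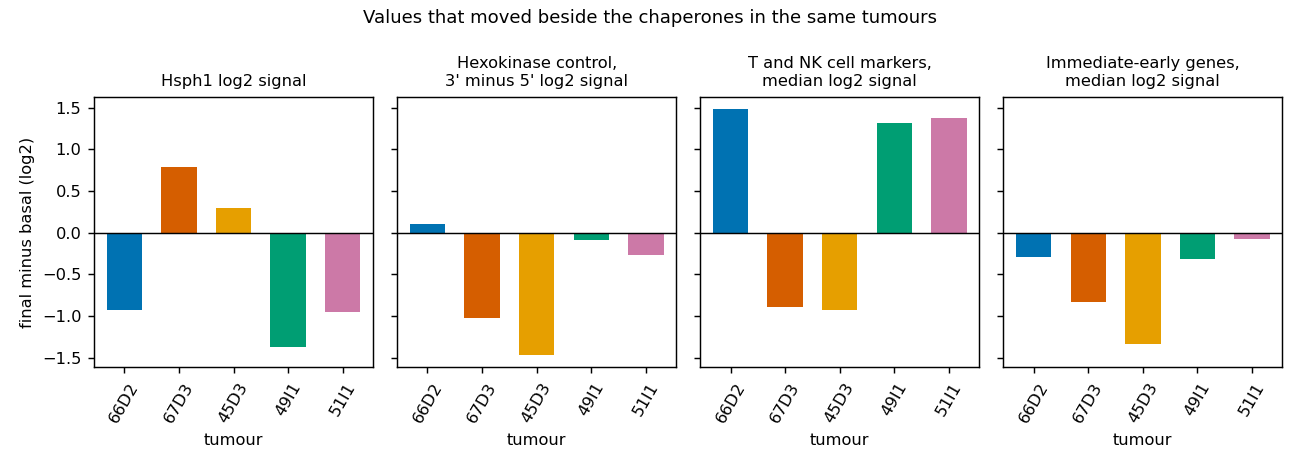
Final minus basal difference (log2) in each tumour for Hsph1, for the hexokinase control's 3′ minus 5′ difference, and for the medians of the T and NK cell and immediate-early lists. The bars of 67D3 and 45D3 are above 0 for Hsph1 and below 0 in the other 3 panels. The immediate-early bars are below 0 in every tumour, and the hexokinase bars also in 49I1 and 51I1. The T and NK bars of the other tumours are between 1.32 and 1.49, from list medians below BioB.

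The means rest on few tumours. Without 51I1 the difference was -0.37 for Hspa1a and -0.04 for Dnajb1, without 49I1 it was -0.20 for Hsph1, and without 67D3 it was -1.22 for Hspa1a and -0.74 for Hsph1. Hspa2 stayed between -0.79 and -0.63 and Hsf1 between -0.40 and -0.27 when each tumour was left out in turn. In these limma fits the unadjusted p of Hsf1 was 0.106 without 66D2, 0.089 without 45D3 and 0.113 without 51I1. It was 0.025 without 67D3 and 0.033 without 49I1.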

How the data were processed

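Affymetrix rat arrays were hybridised with biotin-labelled RNA from 5 final and 5 basal samples. The values deposited by the authors were normalised by RMA, per the submitters' processing notes, and are read here as log2 from their range. No version of the RMA software is named in the sources. RMA equalises distributions, so a change in total RNA per cell would not show. The table holds 31099 probe sets; of 31042 that are not controls, the platform annotation of 2016 gives 1 symbol to 20826, several to 436 and none to 9780. Entrez IDs of the chaperone probe sets matched the same symbols in RefSeq (GRCr8). No column was left unused. The dimmest 40% by mean were left out, leaving 18625 probe sets, of which those with 1 symbol covered 10839 genes. Differences were fitted with limma 3.58.1 (statmod 1.5.0, R 4.3.3) with the tumour as a block, tested on simulated data, at an adjusted p threshold of 0.05; residual degrees of freedom were 4 and the prior 2.64. Pairs come from the tumour identifier shared by 2 labels. Deviations from group means correlated by 0.47 in 67D3, -0.16 in 45D3, 0.72 in 66D2, 0.29 in 49I1 and 0.17 in 51I1. The mean was 0.30 over pairs of the same tumour and -0.07 over pairs of different tumours. The value of 45D3 lay below the latter, so its pairing rests on the labels alone. A gene's value is that of its brightest probe set. The genes, lists and tests were chosen with earlier results of these data known. Names follow a fixed rule: all the chaperone genes, Hspa1a, the 3 genes of smallest p in each network list, and the 5 of highest r, for which Hsph1, Dnajb1 and Hspa1a stood in for Hspa1b and Hspa8. Of the marker lists fixed, those that follow or bear on the division of tumours are given in the report, the rest in the closing section. Alternatives were the block, filter, scaling, array weights, prior trend, probe sets averaged per gene, the methods' t-test, 2 covariates and each tumour left out. Array number limits precision.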

Additional observations from a re-analysis of the deposited data

Results flagged for a closer look

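In 34 groups of 5 signals (17 probe sets in final and in basal samples), 2 held a sample far from the rest by its gap to the nearest other, a flag that chance gives to about 1 in 20 groups. The Bag3 signal of the basal 66D2 sample was 9.02, below the other biopsies at 9.45 to 9.58. The second Hspa2 probe set had 6.77 in the basal 49I1 sample, above the other biopsies at 5.54 to 5.82, and the first Hspa2 probe set was also highest there (7.06).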

How the results depend on the processing

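Of 141 values of the 7 genes and Hspa1a under the alternatives, 132 kept their direction and stayed short of the limma threshold, and 9 changed sign, in Hsp90ab1, Bag3 and Dnaja1. Hsp90ab1 was -0.077 when the hexokinase difference entered as a covariate, -0.025 when the muscle list did, and -0.0062 under array weights. When each tumour was left out in turn Hsp90ab1 ran from -0.013 (without 45D3) to 0.058 (without 51I1), Bag3 from -0.082 (without 67D3) to 0.044 (without 51I1) and Dnaja1 from -0.28 to 0.026 (without 49I1). With the hexokinase covariate 2 probe sets passed the threshold, neither of the genes described, and 0 passed under each of the other alternatives; the cause was not tested. The methods' t-test gave 1394 probe sets at an unadjusted p under 0.05 and 0 after Benjamini-Hochberg adjustment. Without the replicate block, where the samples are not paired, 0 probe sets passed, 1001 had an unadjusted p under 0.05 (1494 with the block, 3383 without 45D3, 3254 under array weights, 2564 under the hexokinase covariate, 998 without 51I1, 833 without 66D2, 795 without 67D3), and Hspa2 had an adjusted p of 0.934. The median over the 7 genes ran from -0.37 to -0.07, and the count of network genes past the threshold was 0 throughout, with 1 at an unadjusted p under 0.05, but 15 without 45D3, 14 under the hexokinase covariate, 12 under array weights and 0 without 66D2, 67D3 or 51I1; the other alternatives gave 0 to 3. With the skeletal muscle covariate Hspa2 differed by -0.44, Hsf1 by -0.56, Hsph1 by -0.87, Dnajb1 by -0.36 and Hspa1a by -1.61, and averaging probe sets gave -0.46 for Hspa2. Neither Hspa2 with the dimmest 60% left out nor Hspa2 and Hsf1 with the BioB filter were tested. No fit left out both 67D3 and 45D3, since that would choose tumours by the outcome. Below BioB the size of a difference is uncertain.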

Other observations

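The remaining marker lists are given as values, with no test. Mast cell markers were lower in 8 of 9, with per-tumour medians of -3.04 in 67D3, -0.05 in 45D3, -0.89 in 66D2, -0.59 in 49I1 and 0.12 in 51I1. Fibroblast and matrix genes were higher in 10 of 10, with medians of 1.23 in 67D3, -1.22 in 45D3, 1.43 in 66D2, 0.57 in 49I1 and 0.80 in 51I1. The median of the mean differences was 0.69 for adipocyte, 0.43 for endothelial, -0.00053 for macrophage, 0.11 for luminal and -0.09 for myoepithelial and smooth muscle markers. Of these 7 lists, none had a median above 0 in the 2 tumours with higher chaperones and below 0 in the other 3, or the reverse.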
